A study of Mus musculus with 12 samples.

Results

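The CD54+CD31- cells of mouse fetal liver (FL) were compared between embryonic day 18.5 (E18.5) and E14.5. The members are the 6 RNA-seq libraries whose labels give this surface phenotype, 3 per age and replicates 1, 2, and 3 of each, of 12 libraries in the series. The embryos were of strain C57BL/6, and no treatment or altered allele is named for either age. Each FL was digested with liberase, and Ter119-CD45-CD54+CD31- cells were sorted, so that both groups were selected against the erythrocyte antigen Ter119, the hematopoietic antigen CD45, and the endothelial antigen CD31. CD54 is the product of *Icam1*, an adhesion molecule that epithelial, endothelial, and mesenchymal cells can all carry. The labels do not tie the libraries to litters, and the p-values measure the spread between these libraries, which may be technical.

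The parenchyma of the FL is formed by hepatoblasts, which make plasma proteins early and which mature toward hepatocytes or bile duct cells until birth. Maturing hepatocytes lose fetal genes such as *Afp* and acquire the enzymes of the urea cycle, of glucose release, of bile acid synthesis, and of drug metabolism. In the lung of the same embryo, alveolar type 2 cells begin to make surfactant before birth and alveolar type 1 cells form the thin gas exchange surface.

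Total counts lay between 40714017 and 64368883 per library. *Cdk8*, *Zc3h7a*, and *Il1rapl1* together held 10.8% to 23.1% of them. Levels are given as counts per 1e6 counts (CPM) of a library size scaled by the trimmed mean of M values (TMM), and differences as log2 fold changes of E18.5 over E14.5 with their SE. Of 15863 genes tested, 5697 were higher at E18.5 (35.9% of genes) and 5317 were lower (33.5%; 69.4% in either direction; edgeR's quasi-likelihood test, adjusted p below 0.05, n = 3 per age). The levels of E18.5 and E14.5 libraries did not overlap in 77% of all genes tested. The shares of 35.9% higher and 33.5% lower are the background for list counts below on the TMM scale that use every library.

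The E18.5 libraries differed among themselves before any comparison of ages. *Alb* (ENSMUSG00000029368, chr5:90460897-90476602 on the plus strand of GRCm38), which encodes albumin, had 37848, 41522, and 41198 CPM in E14.5 replicates 1, 2, and 3 and 2508, 26870, and 35008 CPM in the E18.5 replicates. E18.5 replicate 1 was far below every other library, and the ages did not overlap. Its log2 fold change was -0.91 ± 0.88 on the TMM scale (adjusted p = 0.391, edgeR). *Sftpc* (ENSMUSG00000022097, chr14:70520949-70524081 on the minus strand), which encodes surfactant protein C of alveolar type 2 cells, had 0, 1.54, and 0.0871 CPM at E14.5 and 12907, 5145, and 5477 CPM at E18.5. Replicate 1, the lowest for *Alb*, was the highest for *Sftpc*, and the ages did not overlap. *Alb* made up 0.292%, 3.19%, and 3.90% of the counts of E18.5 replicates 1, 2, and 3, and *Sftpc* 1.5%, 0.612%, and 0.610%. In bulk samples, fewer cells of a type and less RNA per cell cannot be told apart.

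**Figure D1:**
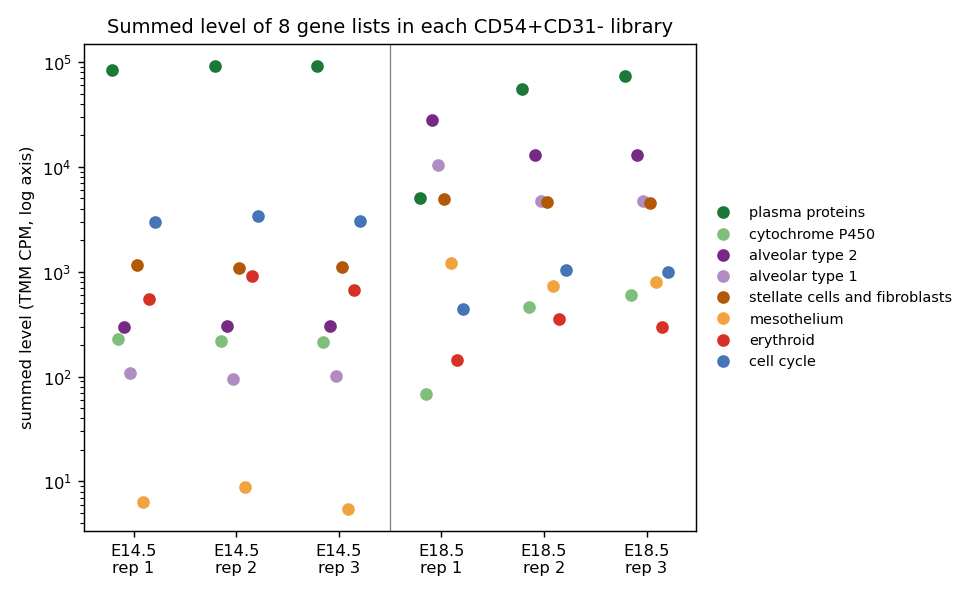
Summed level of 8 gene lists (vertical axis, TMM-scaled CPM, log axis) in each of the 6 CD54+CD31- libraries (horizontal axis, 1 point per list and library, set side by side within a library). The alveolar lists are higher in every E18.5 library than in every E14.5 library, and the plasma protein list is lowest in E18.5 replicate 1, at 5079 CPM.

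Alveolar genes of the lung were abundant at E18.5. Of the alveolar type 2 list 16 of 16 genes were higher, with a median log2 fold change of 9.79 (9.67 with the gene absent at E14.5 set to its lower bound) against a median of 0.033 over all genes tested. Its summed level was 295 to 306 CPM in the E14.5 libraries and 28153, 12992, and 13117 CPM in E18.5 replicates 1, 2, and 3. *Nkx2-1*, the factor that specifies the lung and thyroid epithelium, had 0 counts in each E14.5 library and 393, 262, and 233 CPM at E18.5, at least 3519-fold higher with 3 counts per library taken as the limit that a count of 0 allows. This limit covers counting error only. Several lung genes passed the filter on low counts through the E18.5 libraries alone, so the counts of these lists are a description. *Sftpb*, which encodes surfactant protein B, had 0.418, 0.561, and 0.152 CPM at E14.5 and 2651, 1283, and 1387 CPM at E18.5. *Slc34a2*, a phosphate carrier of alveolar type 2 cells, rose by 12.39 ± 0.47 (adjusted p = 1.38e-05, edgeR). Not every gene of the list was absent earlier. *Abca3*, a lipid transporter of surfactant storage, already had 151, 140.1, and 132 CPM at E14.5 and reached 1313, 746, and 738 CPM, and *Ctsh*, a lysosomal protease, went from 73.8, 77.9, and 88.1 to 1105, 615, and 589 CPM.

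The alveolar type 1 list was likewise higher at E18.5, with 12 of 12 genes higher and a median log2 fold change of 10.01. Its summed level was 94.5 to 108 CPM at E14.5 and 10337, 4687, and 4731 CPM in the E18.5 replicates. *Ager*, a receptor abundant on alveolar type 1 cells, had 0.549, 1.23, and 0.479 CPM at E14.5 and 1999, 860.4, and 804 CPM at E18.5. *Akap5*, a kinase anchoring protein of the list, rose by 9.54 ± 0.42 (adjusted p = 1.57e-05, edgeR). Airway genes were a smaller part. Of 11 genes tested 8 rose, with a median log2 fold change of 4.97 (4.81 with the gene absent at E14.5 at its bound), and the summed level was 10.1 to 12 CPM at E14.5 and 299.6, 109, and 113 CPM at E18.5. *Scgb1a1*, the secretoglobin of club cells, had 2 counts over the E14.5 libraries and 10499 over the E18.5 libraries, a ratio of 3000 (95% counting interval 830 to 24800). *Foxj1*, the factor of ciliated cells, had 9.88, 9.75, and 9.1 CPM at E14.5 and 9.86, 6.94, and 8.49 CPM at E18.5 (adjusted p = 0.328, edgeR), and the basal cell genes *Trp63* and *Krt5* stayed at or below 0.71 CPM in every library.

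Lung genes were also set against each other. Per 1000 *Sftpc* counts, *Sftpb* had 205, 249, and 253 counts in replicates 1, 2, and 3. *Ager* had 155, 167, and 147 on the same scale. *Col1a1*, the collagen gene of fibroblasts, had 139, 318, and 296. The first 2 genes varied less against *Sftpc* than *Col1a1* did, whose CPM, given with the fibroblast genes, were close in the 3 libraries. Other genes did not keep to such a split. The lung genes *Nkx2-1* and *Scgb1a1* had 30.4, 50.9, and 42.5 and 8.24, 4.99, and 4.97, and the mesothelial gene *Msln* had 25.3, 28.6, and 30.2.

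To separate genes of the liver share from the others, each gene was fitted with age and with the log2 *Alb* level as terms, which gives a slope on *Alb* and a log2 fold change between ages at equal *Alb*. A slope of 1 means that a gene moved in step with *Alb* across libraries, and 0 that it did not move with it. Since *Alb* varied little among the E14.5 libraries, the slope rests on E18.5 replicate 1 against replicates 2 and 3. The change at equal *Alb* and its SE then rest mainly on E18.5 replicates 2 and 3 against E14.5. The median slope over all genes tested was -0.015, and 384 genes had a slope over 0.8. The liver lists did not share 1 slope. The median was 0.99 in the plasma protein list (range 0.82 to 1.17), 0.97 in the coagulation list, and 1.03 in the cytochrome P450 list. It was 0.76 in the complement list, 0.69 in the urea list, 0.61 in the transcription factor list, and 0.41 in the fat oxidation list, and in the fetal list it was 0.048. The alveolar type 2 and type 1 lists moved against *Alb*, with medians of -0.25 and -0.32. Mesenchymal and mesothelial lists lay near 0, with 0.025 for stellate cells and fibroblasts and -0.098 for mesothelium. The erythroid list lay at 0.73 and the macrophage list at 0.42, within the range of the liver lists.

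**Figure D2:**
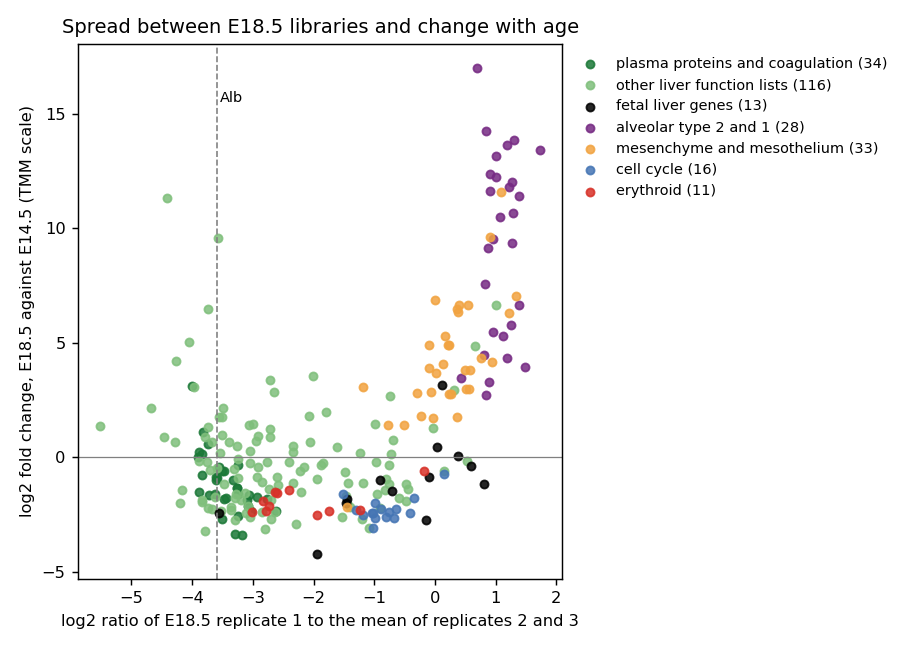
Log2 ratio of E18.5 replicate 1 to the mean of replicates 2 and 3 (horizontal axis) against the log2 fold change of E18.5 over E14.5 on the TMM scale (vertical axis), 1 point per gene tested, with the number of genes per group of lists in the key and the ratio of *Alb* as a dashed line. Plasma protein and coagulation genes gather around the line at -3.60, and alveolar genes lie right of 0 at log2 fold changes of at least 2.72.

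A second way of finding these genes used no fit, but the same contrast as the slope, E18.5 replicate 1 against replicates 2 and 3. Its likeness to the slopes follows from this construction, and its counts are a description. Of 9022 genes tested with a mean of at least 10 CPM over the 6 libraries, here unscaled, 254 (2.82%) had a replicate ratio within 1 log2 unit of that of *Alb*. Of 179 genes of the liver lists tested, 89 did so, and of 28 alveolar genes 0 did. All of the coagulation list followed *Alb* (17 of 17), as did 23 of 24 plasma protein genes and 13 of 21 genes of amino acid breakdown. In contrast, 5 of 20 liver transcription factors, 2 of 14 genes of fat oxidation, and 1 of 13 fetal liver genes did so.

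At equal *Alb*, 5777 of the 15863 genes were higher at E18.5 (36.4%) and 5525 were lower (34.8%; 71.2% in either direction; edgeR's quasi-likelihood test, adjusted p below 0.05). Without E18.5 replicate 1 these counts were 3821 and 3700 (23.8% and 23% of 16074 genes). Liver genes are given below as counts per 1000 *Alb* counts in each library. Transcript of other cells enters this scale for a gene that they also express. The E18.5 values of *C3* were 429.6, 165, and 167 counts per 1000 *Alb* counts in replicates 1, 2, and 3. The alveolar lists rose in the same 3 libraries, and their part in such genes was not tested.

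Plasma proteins shifted in both directions relative to *Alb*. At equal *Alb*, 7 of 24 genes rose and 14 fell, where 36.4% and 34.8% of all genes tested did. The median of the list was -0.55 and turned to 0.74 with 6 liver transcription factor genes as the reference in place of *Alb*. Without E18.5 replicate 1, 7 rose and 11 fell. *Ahsg*, which encodes fetuin-A, had 77.2, 75.4, and 77.3 counts per 1000 *Alb* counts at E14.5 and 192, 208, and 216 at E18.5. The E18.5 libraries were close to each other on this scale although their *Alb* levels differed, and all were above E14.5. The log2 fold change at equal *Alb* was 1.48 ± 0.097 (adjusted p = 2.35e-06, edgeR). *Fetub*, which encodes the related fetuin-B, had 0.112, 0.12, and 0.138 at E14.5 and 1.49, 2.01, and 2.03 at E18.5 on the same scale, a change of 4.08 ± 0.12 (adjusted p = 2.67e-08, edgeR). The 3 fibrinogen chain genes *Fga*, *Fgb*, and *Fgg* rose by 0.97, 1.06, and 1.16 at equal *Alb*.

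Other carriers and inhibitors fell against *Alb*. *Rbp4*, the carrier of retinol, had 60.5, 66.4, and 59.7 counts per 1000 *Alb* counts at E14.5 and 14, 11, and 11.8 at E18.5, a change of -2.47 ± 0.11 at equal *Alb* (adjusted p = 3.59e-07, edgeR). *Serpinf2*, which encodes the inhibitor of plasmin, had 41.5, 38.9, and 38.7 and 9.19, 6.74, and 7.01, a change of -2.57 ± 0.10 (adjusted p = 1.62e-07, edgeR). The ages did not overlap for either gene. *Apoa2* and *Apoa1*, the proteins of high density lipoprotein, changed by -1.79 and -0.73 at equal *Alb*, and the latter turned to 0.69 with the factor genes as the reference. *Kng1*, which encodes kininogen, had 33.4, 33.8, and 33 at E14.5 and 33.9, 34.3, and 34.1 at E18.5 and a change of 0.034 ± 0.088 (adjusted p = 0.745, edgeR), which was not past the threshold. In the coagulation list 6 of 17 genes rose and 8 fell, with a median of -0.14, where 36.4% and 34.8% of all genes tested did. Without E18.5 replicate 1, 3 genes of the list rose and 7 fell.

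**Figure D3:**
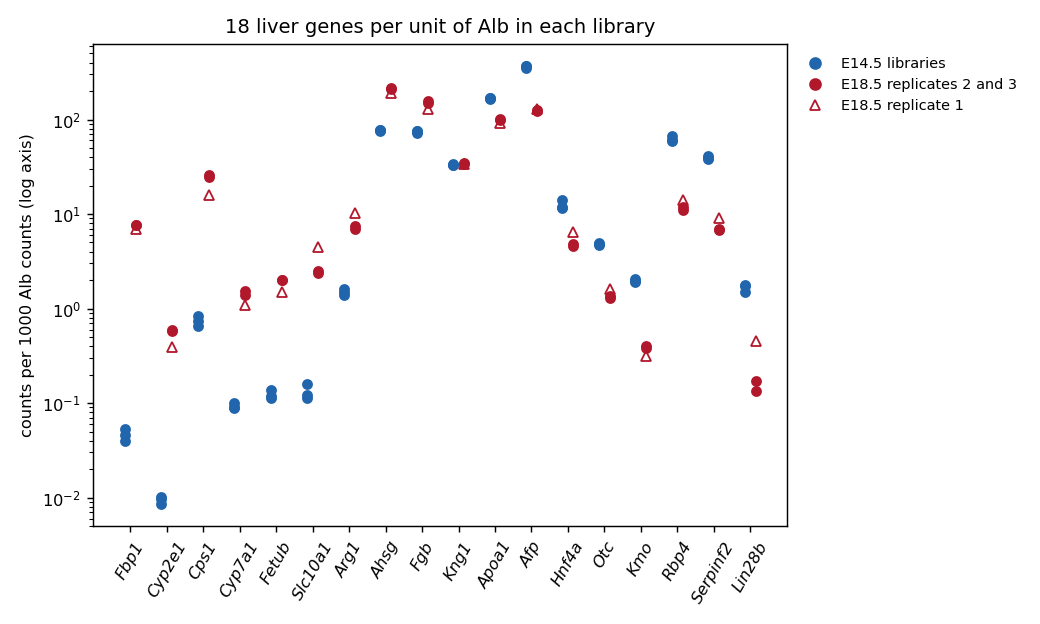
Counts per 1000 *Alb* counts (vertical axis, log axis) of 18 liver genes (horizontal axis) in each library, with E14.5 libraries in blue, E18.5 replicates 2 and 3 as red circles, and E18.5 replicate 1 as an open triangle. The E18.5 libraries lie close together for most genes, above E14.5 from *Fbp1* to *Fgb*, level with it for *Kng1*, and below it from *Apoa1* to *Lin28b*.

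Most fetal liver genes fell. On the TMM scale 9 of 13 genes of the list were lower and 2 higher, where 33.5% and 35.9% of all genes tested were. The median of the list was -1.18. At equal *Alb* 10 of its genes were lower and 2 higher, where 34.8% and 36.4% of all genes tested were. Since most fetal genes of the list did not follow *Alb*, division by *Alb* alone turned the median to 1.1. *Afp* (ENSMUSG00000054932, chr5:90490737-90508907 on the plus strand), which encodes alpha-fetoprotein, lies beside *Alb* and was the 1 fetal gene that followed it. It had 352, 366, and 369 counts per 1000 *Alb* counts at E14.5 and 128, 127, and 123 at E18.5, with a slope of 0.99 on *Alb*. The log2 fold change at equal *Alb* was -1.54 ± 0.11 (adjusted p = 4.64e-06, edgeR). The promoter windows of both genes are shown because the pair moved together between the E18.5 libraries and apart between the ages. They hold the 250 bases before the RefSeq start (GRCm38.p6, plus strand, chr5:90460620-90460869 for *Alb* and chr5:90490464-90490713 for *Afp*).
Alb: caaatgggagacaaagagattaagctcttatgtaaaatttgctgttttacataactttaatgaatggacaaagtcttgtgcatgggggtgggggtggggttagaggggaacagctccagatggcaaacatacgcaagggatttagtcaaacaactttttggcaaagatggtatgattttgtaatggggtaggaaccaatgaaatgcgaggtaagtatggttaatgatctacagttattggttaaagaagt
Afp: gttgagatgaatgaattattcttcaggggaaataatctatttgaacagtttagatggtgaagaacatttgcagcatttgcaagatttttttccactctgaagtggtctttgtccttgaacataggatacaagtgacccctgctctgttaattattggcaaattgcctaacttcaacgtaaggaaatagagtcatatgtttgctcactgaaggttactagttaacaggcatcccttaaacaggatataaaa

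*Lin28b*, which encodes a binding protein of let-7 precursors, had 66.6, 62.3, and 71.1 CPM at E14.5 and 1.13, 4.63, and 4.7 CPM at E18.5, a change of -4.25 ± 0.52 on the TMM scale (adjusted p = 4.17e-04, edgeR) and -3.62 ± 0.13 at equal *Alb* (adjusted p = 8.51e-08, edgeR). *Igf2bp1*, which encodes a binding protein of *Igf2* mRNA, had 281, 245, and 282 CPM at E14.5 and 37.5, 40.7, and 43.8 CPM at E18.5. Its level was nearly the same in the 3 E18.5 libraries, with a slope of 0.048, and the change on the TMM scale was -2.73 ± 0.11 (adjusted p = 1.51e-05, edgeR). *Dlk1*, a surface marker of hepatoblasts, had 2336, 2346, and 2274 CPM at E14.5 and 1422, 795, and 854 CPM at E18.5, so that it was highest in the E18.5 library with the least *Alb*. On the TMM scale *Igf2*, the fetal growth factor, and *Gpc3*, a surface proteoglycan, changed by -1.83 ± 0.44 and -1.46 ± 0.23 (adjusted p = 0.00911 and 0.00129, edgeR). *Igf2bp2* had a change of 0.054 ± 0.13 (adjusted p = 0.723, edgeR). *Ptn*, which encodes pleiotrophin, rose by 3.15 ± 0.34 (adjusted p = 2.48e-04, edgeR), and *Mdk*, which encodes the related midkine, by 0.45 ± 0.11 (adjusted p = 0.00928, edgeR). Counts per *Alb* count of *Dlk1*, *Gpc3*, *Igf2*, *Igf2bp1*, and *Igf2bp3* overlapped between the ages, with E18.5 replicate 1, the library with the least *Alb*, apart from replicates 2 and 3.

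The urea cycle did not rise as a unit. At equal *Alb*, 4 of 10 genes rose and 5 fell, with a median of -0.41 that division by *Alb* alone turned to 0.83. Of all genes tested, 36.4% rose and 34.8% fell at equal *Alb*. *Cps1* (ENSMUSG00000025991, chr1:67123026-67231259 on the plus strand), which encodes the enzyme of the first step, had 31.2, 30.6, and 26.7 CPM at E14.5 and 39.6, 658, and 909 CPM at E18.5. Per 1000 *Alb* counts it had 0.825, 0.736, and 0.649 and 15.8, 24.5, and 26, a change of 5.17 ± 0.12 at equal *Alb* (adjusted p = 1.17e-08, edgeR). *Arg1*, the last enzyme of the cycle, rose by 2.22 ± 0.093 (adjusted p = 1.99e-07, edgeR). *Otc*, the second enzyme, went the other way, from 4.96, 4.79, and 4.72 to 1.6, 1.37, and 1.29 counts per 1000 *Alb* counts, a change of -1.89 ± 0.081 (adjusted p = 2.30e-07, edgeR). *Nags*, whose product makes the activator of the *Cps1* enzyme, fell by 1.92 ± 0.12 (adjusted p = 2.34e-06, edgeR). *Ass1* had a change of 0.16 ± 0.11 (adjusted p = 0.201, edgeR).

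The genes of the final steps of glucose release rose far more than the rest of their list. *Fbp1*, which encodes fructose-1,6-bisphosphatase, had 0.0456, 0.0398, and 0.0529 counts per 1000 *Alb* counts at E14.5 and 6.89, 7.71, and 7.6 at E18.5. It was 161-fold higher per *Alb* count, and the change at equal *Alb* was 7.38 ± 0.12 (adjusted p = 3.37e-09, edgeR). *G6pc*, which encodes the enzyme that releases free glucose, had 3 counts over the E14.5 libraries and 4598 over the E18.5 libraries, a ratio of 876 on the TMM scale (95% counting interval 300 to 4250). Its E18.5 levels were 2.4, 25.3, and 35.3 CPM, in the order of *Alb*. At equal *Alb* 5 of 14 genes rose and 4 fell, where 36.4% and 34.8% of all genes tested did. *Pcx*, which encodes pyruvate carboxylase, rose by 1.81 ± 0.12 (adjusted p = 2.09e-06, edgeR), with 64.2, 10.4, and 10.7 counts per 1000 *Alb* counts in the E18.5 libraries. *Gys2*, the liver glycogen synthase, fell by 1.34 ± 0.089 (adjusted p = 2.64e-06, edgeR), but had 0.09 with the factor genes as the reference.

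Most cytochrome P450 genes rose. At equal *Alb* 15 of 18 rose and 2 fell, with a median of 1.61, where 36.4% and 34.8% of all genes tested rose and fell. Without E18.5 replicate 1, 14 of 19 rose, where 23.8% of all genes tested did. On the TMM scale, where the spread of *Alb* among the E18.5 libraries enters, 5 rose, and without this library 15 did. *Cyp2e1*, which metabolizes ethanol, had 0.00967, 0.0101, and 0.00846 counts per 1000 *Alb* counts at E14.5 and 0.393, 0.592, and 0.577 at E18.5, a change of 6.02 ± 0.18 (adjusted p = 3.81e-08, edgeR). *Cyp7a1*, the rate-limiting enzyme of bile acid synthesis, had 0.0995, 0.0918, and 0.0888 and 1.09, 1.53, and 1.4, a change of 4.01 ± 0.12 (adjusted p = 3.79e-08, edgeR). *Cyp8b1*, which sets the share of cholic acid, rose by 2.67 ± 0.18 (adjusted p = 2.60e-06, edgeR). *Cyp4a14*, a fatty acid hydroxylase, had 0 counts in each E14.5 library and 0.307, 6.7, and 10.4 CPM at E18.5, at least 69-fold higher. *Cyp2d10* fell by 0.91 ± 0.14 (adjusted p = 3.72e-04, edgeR), but had 0.41 with the factor genes as the reference. Many P450 genes have close copies, and the sources used here do not state how reads with several alignments were counted, so the split among the *Cyp2c*, *Cyp2d*, and *Cyp3a* members is uncertain.

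**Figure D4:**
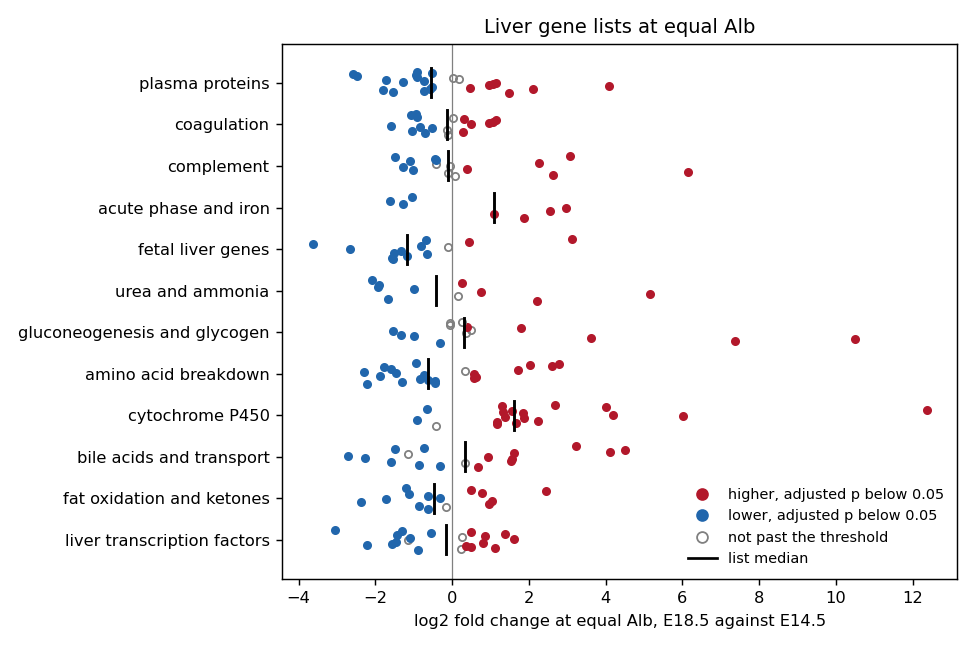
Log2 fold change of E18.5 over E14.5 at equal *Alb* (horizontal axis) of each gene tested in 12 liver lists (vertical axis, 1 row per list), with genes past the threshold in red or blue, others as open circles, and the list median as a bar. The cytochrome P450 list has the highest median, 1.61, and the fetal list the lowest, -1.18. The point farthest right is *Cyp4a14*, whose fitted value depends on the prior count since its E14.5 libraries are at 0.

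Bile acid genes were higher or lower about as often as all genes tested (36.4% and 34.8%). At equal *Alb* 8 of 17 genes rose and 7 fell, with a median of 0.34 (-0.075 without E18.5 replicate 1). *Slc10a1*, the bile acid uptake carrier of the sinusoidal membrane, had 0.16, 0.112, and 0.123 counts per 1000 *Alb* counts at E14.5 and 4.49, 2.5, and 2.39 at E18.5, a change of 4.12 ± 0.14 (adjusted p = 6.59e-08, edgeR). *Slco1b2*, another uptake carrier, rose by 3.23 ± 0.18 (adjusted p = 8.99e-07, edgeR). The canalicular exporters moved less, with 0.69 ± 0.12 for *Abcb11*, the bile salt export pump, and -0.85 ± 0.13 for *Abcc2*, the exporter of conjugates, which turned to 0.59 with the factor genes as the reference. *Fgfr4*, the receptor through which FGF19 family hormones restrain bile acid synthesis, fell by 2.70 ± 0.15 (adjusted p = 1.07e-06, edgeR).

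Of the amino acid breakdown list, 13 of 21 genes were lower and 7 higher at equal *Alb*, where 34.8% and 36.4% of all genes tested were. The median of the list was -0.62 and turned to 0.57 with the factor genes as the reference. Without E18.5 replicate 1, 12 of its genes were lower and 4 higher, where 23% and 23.8% of all genes tested were. *Kmo*, an enzyme of tryptophan breakdown, had 2.03, 1.91, and 1.97 counts per 1000 *Alb* counts at E14.5 and 0.315, 0.386, and 0.405 at E18.5, a change of -2.28 ± 0.094 (adjusted p = 1.80e-07, edgeR). *Mat1a*, which makes S-adenosylmethionine in adult liver, rose by 1.70 ± 0.10 (adjusted p = 1.43e-06, edgeR), and *Tat*, the tyrosine aminotransferase induced around birth, by 2.02 ± 0.21 (adjusted p = 3.99e-05, edgeR). In the fat oxidation and ketone list 5 of 14 genes rose and 8 fell at equal *Alb*, where 36.4% and 34.8% of all genes tested did. The median of this list was -0.47, and division by *Alb* alone turned it to 1.0. *Bdh1*, the last enzyme of ketone synthesis, fell by 2.38 ± 0.088 (adjusted p = 1.05e-07, edgeR).

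Complement and acute phase genes completed the secreted proteins. Of the complement list 5 of 15 genes rose and 6 fell at equal *Alb*, where 36.4% and 34.8% of all genes tested did. Without E18.5 replicate 1, 4 genes of the list rose and 4 fell. *C4b*, a component of the classical pathway, rose by 2.63 ± 0.14 (adjusted p = 6.82e-07, edgeR), and *C3*, the central component, had a change of 0.088 ± 0.13 (adjusted p = 0.552, edgeR). *C6* rose from 0.288, 0.28, and 0.37 to 48.2, 25, and 23.5 CPM, but its slope on *Alb* was -0.27, in the range of the alveolar lists. Of the acute phase and iron list 4 of 7 genes rose and 3 fell. *Hamp*, which encodes hepcidin, rose by 2.56 ± 0.24 at equal *Alb* (adjusted p = 2.26e-05, edgeR) and had 1.37 on the TMM scale (adjusted p = 0.307, edgeR), where it did not pass. *Hp*, which encodes haptoglobin, had 27.5, 32.4, and 31.8 CPM at E14.5 and 130.4, 189.6, and 259 CPM at E18.5, with a slope of 0.22. The ages did not overlap for either *C6* or *Hp*.

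Among the liver transcription factors, 8 of 20 rose and 9 fell at equal *Alb*, and 5 rose and 8 fell on the TMM scale. The shares over all genes tested were 36.4% and 34.8% at equal *Alb* and 35.9% and 33.5% on the TMM scale. Without E18.5 replicate 1, 4 of the factors rose and 8 fell at equal *Alb*. *Hnf4a*, the factor central to hepatocyte identity, had 14, 11.7, and 12 counts per 1000 *Alb* counts at E14.5 and 6.5, 4.58, and 4.79 at E18.5. It fell by 1.47 ± 0.11 at equal *Alb* (adjusted p = 5.05e-06, edgeR). On the TMM scale without E18.5 replicate 1, its log2 fold change was -1.79 (adjusted p = 6.57e-06, edgeR). *Foxa3*, a forkhead factor of hepatocytes, fell by 2.21 ± 0.16 (adjusted p = 4.10e-06, edgeR). *Prox1* and *Nr5a2*, factors of early hepatoblasts and of bile acid genes, changed by -1.30 ± 0.14 and -1.43 ± 0.14 (adjusted p = 4.49e-05 and 3.27e-05, edgeR). Per 1000 *Alb* counts *Prox1* had 7.83, 5.5, and 6.77 at E14.5 and 7.99, 3.14, and 2.89 at E18.5, and *Nr5a2* had 3.92, 2.73, and 3.4 and 3.5, 1.41, and 1.35. The ages overlapped on this scale for both genes, with E18.5 replicate 1 above replicates 2 and 3.

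*Nr1h4*, which encodes the bile acid receptor FXR, rose by 1.62 ± 0.14 at equal *Alb* (adjusted p = 1.51e-05, edgeR), and *Onecut1*, a factor of biliary and hepatic differentiation, by 1.37 ± 0.10 (adjusted p = 4.64e-06, edgeR). On the TMM scale the changes of these 2 genes, 0.86 ± 0.64 and 0.57 ± 0.66, were not past the threshold. *Tbx3*, a factor of hepatoblast growth, fell in every E18.5 library to a like level, from 61.5, 52.4, and 60.7 to 8.41, 7.23, and 7.14 CPM, and its slope on *Alb* was -0.064. *Foxa1* and *Foxa2*, which lung epithelium also expresses, rose by 0.80 ± 0.19 and 0.60 ± 0.16 on the TMM scale and had slopes of -0.17 and -0.14. *Cebpa* had 174, 164, and 149 CPM at E14.5 and 165, 169.8, and 203 CPM at E18.5 (adjusted p = 0.318 on the TMM scale, edgeR). The ages overlapped for this gene.

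**Figure D5:**
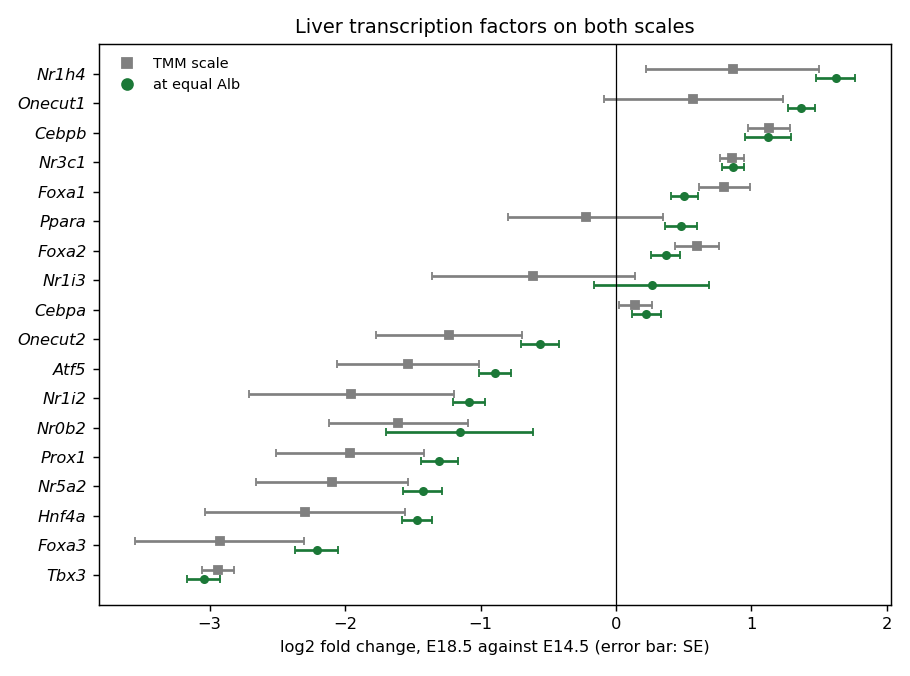
Log2 fold change of E18.5 over E14.5 (horizontal axis) of 18 liver transcription factors tested (vertical axis), on the TMM scale as gray squares and at equal *Alb* as green circles, with SE bars. The bars are shorter at equal *Alb* for *Hnf4a*, *Onecut1*, and *Nr1h4*, and *Tbx3* and *Foxa3* lie farthest left on both scales. For genes that move with *Alb*, the *Alb* term takes up the spread of E18.5 replicate 1, so shorter bars follow from the fit.

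Bile duct genes were higher at E18.5, with 11 of 12 genes higher on the TMM scale and a median of 5.07. *Krt19*, a keratin of bile ducts, mesothelium, and lung epithelium, had 0.261, 0.757, and 0.24 CPM at E14.5 and 459.6, 250.3, and 248 CPM at E18.5. *Sox9*, a factor of duct progenitors, rose from 8.16, 7.74, and 5.75 to 85.1, 75.2, and 73.5 CPM. The slope of the list on *Alb* had a median of -0.11, and 0 of its 12 genes followed *Alb*. Since lung epithelium shares *Krt19*, *Krt7*, *Epcam*, and *Sox9*, bile duct and lung transcripts of these genes cannot be told apart here.

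Cells of the mesenchyme and of the organ surface were also represented. Of the lung mesenchyme list 11 of 11 genes rose, and its summed level was 25.3 to 30.9 CPM at E14.5 and 543, 333, and 318 CPM at E18.5. *Tbx4*, which marks lung mesenchyme, had 0.0784, 0.028, and 0.0436 CPM at E14.5 and 11.6, 4.98, and 4.28 CPM at E18.5. Of the stellate cell and fibroblast list 12 of 13 rose and 1 fell. *Col1a1* had 30.6, 63.9, and 34.3 CPM at E14.5 and 1798, 1636, and 1622 CPM at E18.5, and *Reln*, which encodes reelin, was the gene that fell, from 1017, 829, and 922 to 91.5, 224, and 289 CPM. All 9 mesothelial genes rose, with a median of 6.65 and a summed level of 5.42 to 8.86 CPM at E14.5 and 1202, 729, and 789 CPM at E18.5. *Wt1*, a factor of mesothelium, rose to a like level in every E18.5 library, from 0.837, 1.4, and 0.784 to 28, 29.2, and 31.9 CPM. *Msln*, which encodes mesothelin, had 327, 147, and 165 CPM and was highest in replicate 1, as the alveolar genes were.

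Heart muscle genes were low but present at E18.5. Of 9 genes tested 8 rose, and the summed level was 1.28 to 3.56 CPM at E14.5 and 139, 58.1, and 45.1 CPM in the E18.5 replicates. *Myh6*, the atrial myosin heavy chain, had 0.0784, 0.0561, and 0.0218 CPM at E14.5 and 44, 13.7, and 7.4 CPM at E18.5. The endothelial list rose in 10 of 10 genes to a summed level of 213, 231, and 181 CPM at E18.5, from 36.3 to 60.5 CPM at E14.5, although CD31+ cells were gated out. *Pecam1*, which encodes CD31, had 3.84, 5.94, and 6.53 CPM at E14.5 and 22.2, 20.1, and 13.4 CPM at E18.5. The summed endothelial level reached 9926 CPM in other E14.5 libraries of the series, which include those of CD31+ cells. That value is on a TMM scale over all 12 libraries.

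The erythroid list fell in 7 of 11 genes on the TMM scale, with a median of -2.11, and in 11 without E18.5 replicate 1, whose summed level of 145 CPM was the lowest of the 6 libraries. *Klf1*, the factor of erythroid maturation, had 38.6, 69, and 43.7 CPM at E14.5 and 2.95, 12.5, and 10.9 CPM at E18.5. Counts of *Hba-a1* and *Hba-a2*, nearly identical alpha-globin genes, cannot be told apart with certainty, and *Hba-a1* had 35.9, 53.7, and 49.2 CPM at E14.5 and 2.11, 17.4, and 12.5 CPM at E18.5 (adjusted p = 0.0269, edgeR). This call was lost without any 1 of the E14.5 libraries and without E18.5 replicate 3. Of the macrophage list 2 of 10 genes rose and 0 fell. The risers were *Clec4f*, a lectin of liver-resident Kupffer cells, from 0.915, 1.21, and 2.05 to 5.31, 21, and 19 CPM, and *Vsig4*, a complement receptor of the same cells, from 0.418, 0.0561, and 0.392 to 1.08, 2.89, and 3.28 CPM. *Csf1r*, the receptor that all macrophages share, had 31.2, 38, and 53.5 CPM at E14.5 and 15.3, 44.9, and 45.3 CPM at E18.5 (adjusted p = 0.663, edgeR).

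All 16 cell cycle genes fell, with a median log2 fold change of -2.41 on the TMM scale and -2.06 at equal *Alb*, and all fell without E18.5 replicate 1. *Mki67*, a marker of cycling cells, had 1414, 1556, and 1345 CPM at E14.5 and 205, 607, and 586 CPM at E18.5. *Birc5*, which acts in chromosome segregation, fell by 3.08 ± 0.30 (adjusted p = 1.50e-04, edgeR), and *E2f1*, a factor of S phase entry, fell by 0.75 ± 0.11 (adjusted p = 8.43e-04, edgeR). The median slope of the list on *Alb* was 0.26. The fall within each cell type was not measured.

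Among the genes of the sorting antigens, *Icam1*, which encodes CD54, had 45.9, 46.5, and 47.4 CPM at E14.5 and 326, 177, and 187 CPM at E18.5, higher by 2.31 ± 0.25 (adjusted p = 2.42e-04, edgeR) and highest in the library with the most alveolar transcript. *Cdh1*, which encodes epithelial cadherin, had 423, 391, and 433 and 985, 675, and 711 CPM, higher by 0.93 ± 0.18 (adjusted p = 0.00326, edgeR). *Ptprc*, which encodes CD45, had 8.16, 10.1, and 13.5 CPM at E14.5 and 3.28, 13.8, and 13.5 CPM at E18.5 (adjusted p = 0.931, edgeR).

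Besides genes of the lists, the 10 largest rises on the TMM scale without overlap between the ages included *Cxcl15*, a chemokine of lung epithelium, which went from 0, 0.28, and 0.0436 to 1601, 766, and 665 CPM. *Areg*, which encodes amphiregulin, *Ckmt1*, a mitochondrial creatine kinase, and *Shh*, the morphogen of lung and gut epithelium, each had 0 counts in the E14.5 libraries and were at least 378-fold, 261-fold, and 253-fold higher. Among the 10 largest falls, *Serpina6*, which encodes the corticosteroid-binding globulin, had 5579, 5633, and 5906 CPM at E14.5 and 12.8, 58.8, and 70.8 CPM at E18.5, a change of -6.91 ± 0.73 (adjusted p = 2.22e-04, edgeR). *Cited1*, a transcriptional coregulator, had 78.9, 78.5, and 76.4 CPM at E14.5 and 1.02, 0.549, and 1.24 CPM at E18.5, and its slope on *Alb* was -0.031. *Dusp9*, a phosphatase of MAP kinases, fell by 6.01 ± 0.44 (adjusted p = 5.43e-05, edgeR).

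Of the 254 genes that followed *Alb* between the E18.5 libraries, 53 were over 2-fold higher per *Alb* count at E18.5, 91 were over 2-fold lower, and 110 lay between. The ages did not overlap per *Alb* count in 218 of them, 79 higher and 139 lower, where 51.8% of all genes tested did not overlap on this scale. The choice of these genes used the same E18.5 libraries, so the values are a description without a test. After *G6pc*, the largest rise was that of *Prlr*, the prolactin receptor, from 0.00967, 0.00203, and 0.00106 to 2.12, 1.24, and 1.31 counts per 1000 *Alb* counts. *Fgl1*, which encodes a secreted fibrinogen-like protein of hepatocytes, went from 0.0131, 0.0162, and 0.0143 to 2.37, 2.72, and 2.55. *Adh1*, an alcohol dehydrogenase, was 39.7-fold higher per *Alb* count, *Serpina3n*, a serine protease inhibitor, 28.2-fold, and *Azgp1*, a secreted glycoprotein, 24.2-fold. *Cyp2c69*, which has close copies, was 283-fold higher.

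The largest falls among them were those of *Shbg*, *Gulo*, *Car3*, and *Lect2*. *Shbg*, which encodes the sex hormone-binding globulin, had 2.32, 2.39, and 2.15 counts per 1000 *Alb* counts at E14.5 and 0.0579, 0.0389, and 0.063 at E18.5, 42.9-fold lower. *Gulo*, which encodes the last enzyme of vitamin C synthesis, had 7.07, 6.48, and 6.09 and 0.322, 0.336, and 0.381, 18.9-fold lower. *Car3*, a carbonic anhydrase, was 17.6-fold lower and *Lect2*, a hepatokine, 14.9-fold. *Apom*, an apolipoprotein of high density lipoprotein, had 24.9, 24.4, and 24.2 and 3.26, 3.35, and 3.4, 7.34-fold lower. Close E18.5 values on this scale are tied to the choice of genes that followed *Alb* between these libraries.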

How the data were processed

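RNA from Ter119-CD45-CD54+CD31- cells of embryonic mouse liver was sequenced after enzymatic removal of ribosomal cDNA (SMARTer Stranded Total RNA-Seq Pico kit). Per the submitters' processing notes and the study's methods, the authors trimmed reads with cutadapt 1.11, aligned them to GRCm38 with STAR 2.5.0a, and counted them per gene with featureCounts 1.4.6-p3. The deposited values are raw counts per gene, 1 table per library. Beside them the authors deposited a score, counts scaled by 1 factor per library with DESeq2 and rounded, which was not used. The strand setting and the treatment of reads with several alignments are not given in the sources used here, so overlapping, antisense, and near-identical genes are uncertain.

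From the counts of the 6 libraries, low genes were removed with filterByExpr and ages were compared with edgeR 4.0.16 (R 4.3.3), using TMM scaling, the quasi-likelihood test, and Benjamini-Hochberg adjustment over all 15863 genes. The planned fit with libraries scaled to *Alb* was replaced. On simulated counts of the same genes, neither this fit nor one with each gene's own spread recovered any changed gene, whereas the fit with *Alb* level as a term beside age and the TMM fit recovered nearly all. The simulation lowered the listed liver genes and the changed genes in step with *Alb* in E18.5 replicate 1, and the TMM fit was run without this step. The *Alb* term assumes such a pattern, so the simulation cannot show which fit is better for genes with other slopes. The replacement was chosen after the data were seen. "Own spread" names the *Alb*-scaled fit with no sharing of dispersion between genes, and its calls support no result. SDs are not printed where each library's value is.

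Named genes are, from each list, the 3 with the highest mean CPM, and the 2 largest and 2 smallest changes among those called. The transcription factors, sorting antigens, and fetal genes were all eligible, and so were the 10 largest changes per direction over all genes and among genes that followed *Alb*. *C4b*, *Cyp7a1*, *Cyp8b1*, *Foxj1*, *Kng1*, *Krt5*, *Mat1a*, *Pcx*, *Slco1b2*, *Tat*, *Trp63*, and *Epcam* fall outside this rule and were named after their values were seen. So do *C8b*, *F10*, and *Serpinc1*, which are named only among the alternative fits. Some genes are not reported here. Members and lists were chosen with earlier results of these data known. Promoter sequences are from RefSeq and gene positions from the GENCODE annotation of GRCm38. Replicates with the same number were only weakly correlated (correlations of their deviations 0.048, 0.012, and 0.027). With 3 libraries per age, this cannot settle whether they were paired. Replicate pairs differed by more than sampling noise, so none was merged.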

Additional observations from a re-analysis of the deposited data

How the results depend on the processing

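Depth limited the genes at 0 to 3 counts at E14.5, whose folds have wide intervals. All slopes on *Alb* rest on the spread that E18.5 replicate 1 gives to *Alb*. The changes at equal *Alb* depend on these slopes and rest mainly on E18.5 replicates 2 and 3 against E14.5. For each alternative fit, the cause of a difference was not tested unless its construction shows it. On the TMM scale, a test for changes beyond 2-fold gave 3385 higher and 1930 lower genes. With at least 10 counts in every library, which removes genes absent at E14.5, the median log2 fold changes were -1.03 for fetal liver genes, 4.24 for bile duct, 4.34 for alveolar type 2, 6.79 for alveolar type 1, 3.19 for heart muscle, and -0.037 for airway genes, the last a change of sign. Without a filter on low counts, the heart muscle median was 4.93 and the plasma protein median at equal *Alb* -0.51. With genes above 1% of counts left out, the fetal median was -1.05 and the alveolar type 2 median 7.60, and with all 12 libraries in 1 fit the fetal median was -1.37. Within 0.5 log2 units of *Alb*, 156 genes followed it.

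Other references and fits changed the results at equal *Alb*. With other plasma protein genes as reference, the plasma protein median was -0.49, and it was -0.52 with DESeq2 and *Alb* as a covariate. With liver factor genes as reference, medians were 0.74 for plasma proteins and 0.57 for amino acid breakdown, both a change of sign, 1.13 for coagulation, 0.96 for complement, 2.29 for acute phase, 1.17 for gluconeogenesis, and 3.13 for cytochrome P450, and 8 genes changed sign, *Apoa1* (0.69), *Apob* (0.93), *Serpinc1* (0.39), *F10* (0.67), *Gys2* (0.090), *Cyp2d10* (0.41), *Abcc2* (0.59), and *Nr1i2* (0.25). With libraries scaled to *Alb*, DESeq2 called 2436 higher and 74 lower genes, limma 2904 and 21, edgeR with shared spread 21 lower, and own spread 102 and 162. In the order DESeq2, limma, and edgeR with shared spread, medians were -0.47, -0.48, and -0.47 for plasma proteins, 1.35, 1.33, and 1.35 for acute phase, 1.1, 0.36, and 1.1 for fetal genes, 0.83, 0.49, and 0.83 for urea, -0.11, -0.25, and -0.11 for amino acid breakdown, and 1.00, 0.49, and 1.00 for fat oxidation. The first and last of these fits gave 0.86 and 0.86 for gluconeogenesis and 1.97 and 1.97 for cytochrome P450.

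With the replicate block, 5330 genes were higher and 4999 lower on the TMM scale, and 5340 and 5157 at equal *Alb*. The replicate numbers are shared numbers only, and 2 of 3 libraries per age correlated best with their own number. Among named genes the block added calls for *Slc4a1* and *Cd24a* and lost that of *Cyp4a14*, which is at 0 in every E14.5 library.

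Leaving out 1 library at a time gave 3821 to 6285 higher genes and 3700 to 5644 lower genes at equal *Alb*, both lowest without E18.5 replicate 1, and 5187 to 5915 higher and 4797 to 5774 lower genes on the TMM scale. Medians ranged from 9.32 to 10.78 for alveolar type 2, from 4.41 to 6.00 for airway, and from 3.91 to 5.11 for heart muscle genes on the TMM scale, and from -0.58 to -0.49 for plasma proteins and from 1.01 to 1.48 for acute phase genes at equal *Alb*. No named gene past the threshold changed sign in these fits. *Igf2bp2*, *Csf1r*, *Ptprc*, *Trp63*, *C3*, and *Ass1*, which were not past it, did. *Apob*, *C8b*, and *Ppara* lost their call at equal *Alb* without E18.5 replicate 1.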
